A study of Homo sapiens with 6 samples.

Results

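Matrix metalloproteinases (MMPs), ADAM and ADAMTS proteases, the ADAMTS-like proteins and the tissue inhibitors of metalloproteinases (TIMPs) were followed in A549 cells, a human lung adenocarcinoma line, with and without silencing of FSCN1, which encodes fascin, a protein that bundles actin filaments. The protein-coding genes with these symbols made up 60 of the 30230 genes in the count table, 19 MMP, 16 ADAM, 16 ADAMTS, 5 ADAMTSL and 4 TIMP genes. The rule used their names, and the family was picked with earlier results of these data known. RNA sequencing of polyadenylated RNA was available for 3 libraries of control cells (NC) and 3 of FSCN1-silenced cells (siFSCN1). The study used 3 siRNAs to FSCN1 and made the sequenced libraries with a single one of them, NC cells were given a scrambled siRNA, and cells were harvested after 48 h, while the labels of the control samples name a control plasmid. The study calls the libraries biological replicates, and no label says whether they came from separate cultures, so that p-values measure the spread between these libraries. With a single siRNA, effects of losing fascin and other effects of that siRNA cannot be told apart.

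MMPs are zinc endopeptidases made as inactive precursors that cut collagens, proteoglycans, growth factors and other proteases, either after secretion or while anchored in the membrane. ADAMs are membrane-bound relatives that shed the outer parts of receptors, ligands and adhesion molecules, ADAMTS enzymes are secreted and cut proteoglycans and procollagens, and ADAMTS-like proteins have no protease domain and bind the matrix. TIMPs block the active site of MMPs and of several ADAM and ADAMTS enzymes. In carcinomas much of the MMP supply comes from stromal cells, whereas MMP7 is known as an MMP of the epithelial cell itself.

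The libraries held 27967301 to 36560919 counts, and each had at least 1 count for 50 to 54 of the 60 genes. FSCN1 had 44.98, 47.24 and 45.99 FPKM (fragments per kilobase of transcript, scaled to library size) in NC and 4.46, 2.82 and 3.19 FPKM in siFSCN1 (log2 fold change -3.89 ± 0.094 SE, adjusted p = 8.1e-16). Of 8 markers that A549 cells carry, all passed the filter on low counts, with a summed level of 3262 to 3636 FPKM in NC and 1873 to 2234 FPKM in siFSCN1. Most of that sum came from KRT18 and KRT8, and of the 8 genes 5 were lower and 3, CDH1, CDH2 and EPCAM, higher. Of 15 stromal, endothelial and leukocyte markers with a row, 10 failed the filter, among them COL3A1, DCN, PECAM1 and PTPRC, which are defining for fibroblasts, endothelium and leukocytes. The summed level of the 15 was 5.51 to 5.98 FPKM in NC and 6.78 to 8.33 FPKM in siFSCN1, and most of it came from ACTA2 and CD14. Of the 5 tested, these 2 were higher and CD68 was called lower (log2 fold change -1.24), with a median of -0.14 for the 5. The other 2, COL1A1 and LUM, are fibroblast genes as well. They passed the filter, with up to 133 and 29 counts in a library, and did not differ at an adjusted p under 0.05. Whether the difference in these marker levels has a part in the results below was not tested.

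The protease and inhibitor genes did not move as one block after FSCN1 silencing. MMP14, 4 ADAMTS genes and 2 ADAM genes rose at least 2-fold, ADAM9, ADAM10, ADAM15 and ADAM23 rose by less, and MMP7, the protease of highest FPKM among them, and its inhibitors TIMP2 and TIMP1 fell. Of the 60 genes, 37 passed the filter on low counts and were tested in edgeR's quasi-likelihood fit of all 17076 genes. At an adjusted p under 0.05, 16 were higher in siFSCN1 and 9 lower, while 35.1% of all tested genes were higher and 33.2% lower. At a fold of at least 2, called below, 7 were higher and 2 lower, against 11.7% and 4.85% of all tested genes. The filter keeps a gene with enough counts in 3 libraries, which can be those of a single group. ADAMTS6, ADAMTS13 and ADAM32, called higher with 3 to 12 counts in NC, needed their siFSCN1 counts to enter. Their rise thus helped them into the test. The same holds for ADAM28, which is among the 16 higher genes and had 12, 5 and 20 counts in NC. The CPM (counts scaled by TMM to a common library size) of the 16 higher genes lay above NC in every library, and 11 genes lay below NC in every library, the 9 lower ones with MMP19 and ADAMTS16, against 36.8% and 34.4% of all tested genes. The median log2 fold change of the 37 genes was 0.10, and that of all tested genes 0.03. Fold changes were taken from the TMM-scaled counts and are given with their standard error (SE), whereas the deposited FPKM carry no correction for composition and lie relatively higher in siFSCN1. In bulk RNA a lower level per cell and fewer cells that express a gene cannot be told apart.

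**Figure D1:**
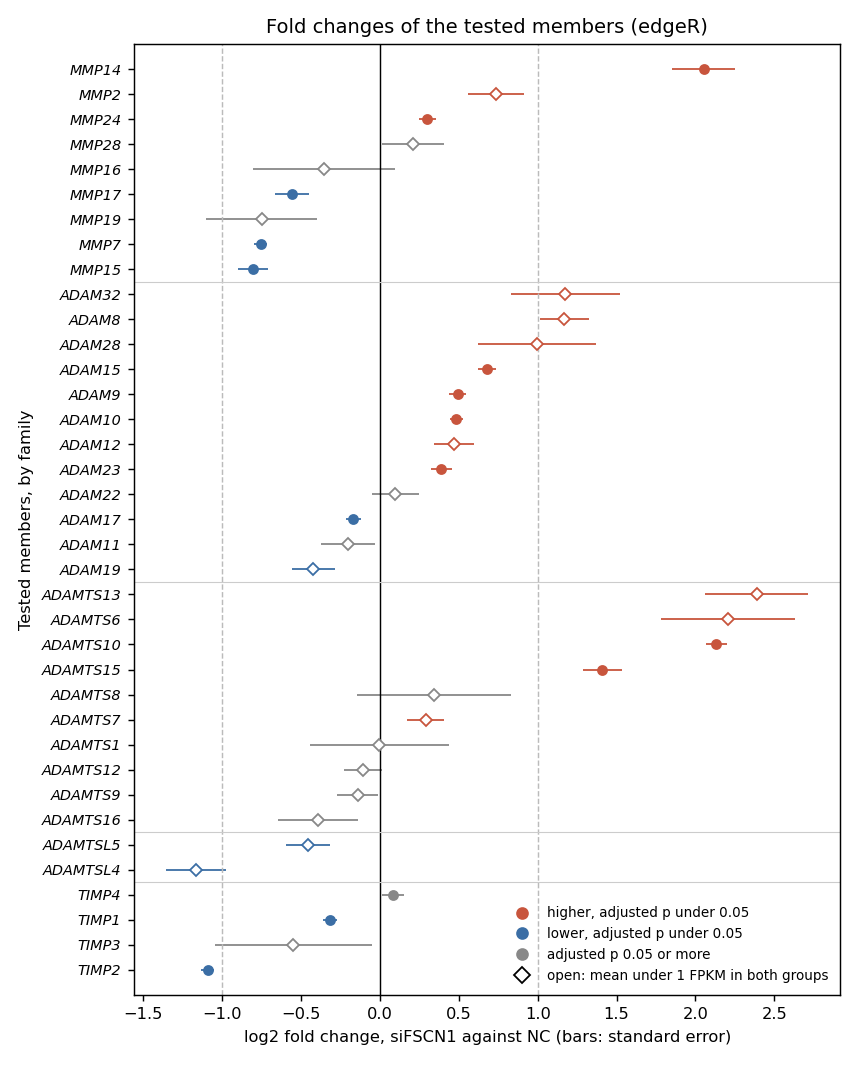
Log2 fold change of siFSCN1 against NC (horizontal axis, edgeR) for the 37 tested genes, grouped by family on the vertical axis, with bars for the standard error and dashed lines at 2-fold. The ADAMTS genes reach from -0.39 to 2.39 with 4 beyond the right dashed line, and TIMP2 and ADAMTSL4 are the genes beyond the left one.

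Abundance set apart the genes that could be compared firmly. A mean of at least 1 FPKM in a group was found for 15 genes, of which 8 were higher and 6 lower at an adjusted p under 0.05. Among all tested genes of that abundance 32.6% were higher and 42.7% lower, and at 2-fold 5.86% and 4.85%, against 3 and 1 of the 15. MMP14 (a mean of 0.21 FPKM in NC and 1.01 FPKM in siFSCN1) and ADAMTS15 (0.44 and 1.32 FPKM), both called higher, reached this class by their siFSCN1 level alone. Their rise thus helped to place them among the 15. Of the 45 genes under 1 FPKM in both groups, 22 were tested, and 8 were higher and 3 lower, where all tested genes under 1 FPKM gave 40.6% and 12.5%. At 2-fold 4 of these 22 were higher and 1 lower, against 24.3% and 4.86% of the tested genes under 1 FPKM. The 22 had passed the filter on their own counts and do not stand for all 45. Their median log2 fold change was 0.05, against 0.36 for all tested genes of that abundance.

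**Figure D2:**
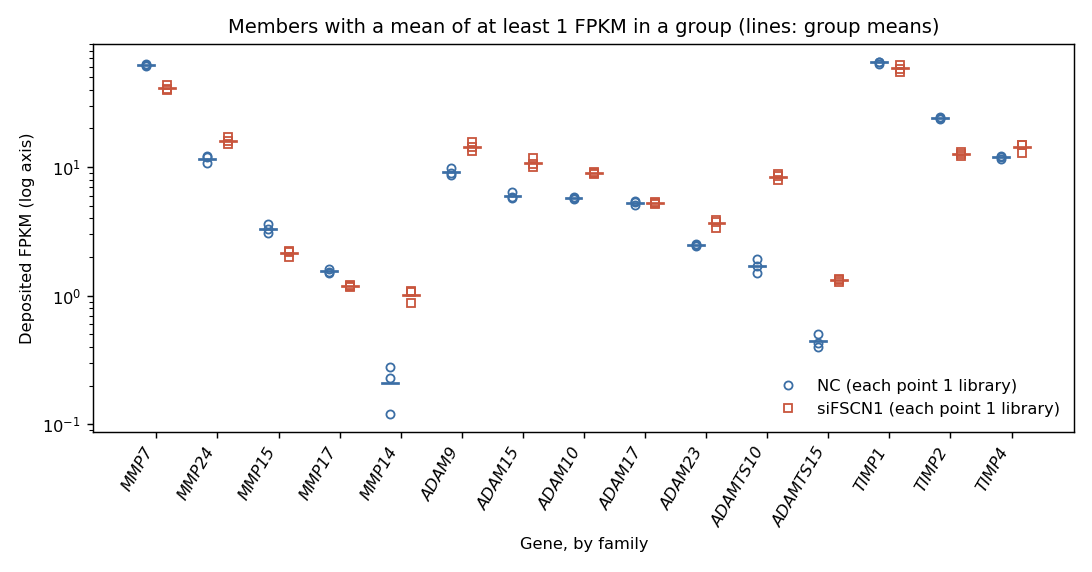
Deposited FPKM on a log axis for the 15 genes with a mean of at least 1 FPKM in a group, with a point per library and a line at each group mean, NC as circles and siFSCN1 as squares. TIMP1 and MMP7 lie highest in both groups, ADAMTS10 moves from 1.5 to 1.92 FPKM in NC to between 7.98 and 8.76 FPKM in siFSCN1, and the points of ADAM17 overlap.

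MMP7 (matrilysin, a small secreted MMP that lacks the hemopexin domain) was the main MMP transcript. Its FPKM was 61.72, 63.42 and 60.97 in NC and 43.48, 40.03 and 40.15 in siFSCN1. Every siFSCN1 library lay below every NC library. In CPM the gene fell 1.69-fold, from 181 ± 4.38 to 107 ± 3.76 (SD, n = 3), with a log2 fold change of -0.76 ± 0.041 SE (adjusted p = 1.4e-11). It took 77.5% ± 1.49 (SD, n = 3) of the summed FPKM of the MMP genes in NC and 65.3% ± 0.615 (SD, n = 3) in siFSCN1.

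MMP7 (GRCh38 chromosome 11, 102520508 to 102530750, minus strand) lies in a cluster of MMP genes, of which 6 others had a row in the table, MMP20, MMP10, MMP1, MMP3, MMP12 and MMP13. The 7 genes span 435 kb and all are on the minus strand. MMP1 and MMP13 are interstitial collagenases, MMP3 and MMP10 stromelysins, MMP12 the macrophage elastase and MMP20 an enamel protease. None of these 6 had over 5 counts in any library, and together they had 4 to 9 counts per library, while MMP7 had 3473 to 6041. These 6 genes were not tested, and a difference in them was not detectable at this depth.

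The bases before the annotated start of MMP7 and of 2 of these neighbours are shown because they share their motifs while their transcript levels lie far apart. MMP10 and MMP20 were the only neighbours with an entry among the promoters used. MMP1, MMP3, MMP12 and MMP13 had none and were not compared. Each line gives the 120 bases that end at the base before the RefSeq start (GRCh38.p14, minus strand, 5′ to 3′), at chr11:102530748-102530867 for MMP7, chr11:102780629-102780748 for MMP10 and chr11:102625333-102625452 for MMP20. Capitals mark TATAAA (the TATA box core) and TGANTCA (the AP-1 core), searched on both strands.
MMP7: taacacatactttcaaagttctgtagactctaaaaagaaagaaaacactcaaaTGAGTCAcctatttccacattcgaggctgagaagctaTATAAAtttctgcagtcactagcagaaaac
MMP10: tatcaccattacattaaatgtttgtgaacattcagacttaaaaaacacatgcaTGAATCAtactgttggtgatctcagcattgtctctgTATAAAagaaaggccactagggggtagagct
MMP20: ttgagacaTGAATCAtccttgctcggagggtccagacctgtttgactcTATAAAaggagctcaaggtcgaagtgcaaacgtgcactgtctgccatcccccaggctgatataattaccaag

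TATAAA began 30, 31 and 72 bases before the start of MMP7, MMP10 and MMP20, and TGANTCA 67, 67 and 112 bases before it. In the 250 bases before the start, 10.7% of all 35116 entries of the RefSeq promoter table held TATAAA and 6.57% TGANTCA on either strand. Of the 60 genes, 36 had an entry, of which 6 held TATAAA and 4 held TGANTCA. For each gene the entry nearest its GENCODE start was used, which for ADAMTSL1 lay 567590 bases away. Another motif, GGGCGG (the GC box), stood in 27 of the 36 (75.0%) and in 42.6% of all entries of the table, which includes non-coding genes. A match describes the letters and is no evidence of binding.

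MMP14 (MT1-MMP, a membrane-anchored collagenase that also activates the precursor of MMP2) showed the largest rise among the MMP genes. Its FPKM was 0.28, 0.12 and 0.23 in NC and 1.06, 1.09 and 0.88 in siFSCN1, from 48, 19 and 46 counts and 187, 188 and 155 counts. The lowest siFSCN1 library lay above the highest NC library, and NC replicate 2 was lower than the other 2 NC libraries. This 4.15-fold rise gave a log2 fold change of 2.05 ± 0.200 SE (adjusted p = 4.4e-08). Per length, MMP14 (GRCh38 chromosome 14, 22836560 to 22849041) stayed far below MMP7 in siFSCN1, at 1.01 FPKM against 41.2 FPKM.

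MMP2 (gelatinase A, which cuts denatured collagen and basement membrane collagen) was higher too, at 0.24, 0.31 and 0.28 FPKM in NC and 0.58, 0.48 and 0.51 FPKM in siFSCN1 (log2 fold change 0.74 ± 0.177 SE, adjusted p = 0.0013). MMP24 (MT5-MMP) had 12.25, 10.70 and 11.91 FPKM in NC and 17.04, 15.95 and 15.22 FPKM in siFSCN1, the groups lying apart, with a log2 fold change of 0.30 ± 0.056 SE (adjusted p = 0.00012). Its exons overlap those of MMP24OS on the opposite strand over 18.4% of their length, and that gene had a like number of counts (a mean of 2104 against 2289), so that its value is uncertain if the counting did not use strand. The labels and the methods both name a strand-specific kit, and whether the counting used it is not given in the sources used here.

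MMP15 and MMP17, also membrane-anchored, went down. MMP15 (MT2-MMP) had 3.60, 3.05 and 3.32 FPKM in NC and 2.17, 2.24 and 1.99 FPKM in siFSCN1. MMP17 (MT4-MMP, held in the membrane by a lipid anchor) had 1.61, 1.54 and 1.5 FPKM and 1.20, 1.17 and 1.18 FPKM. The groups did not overlap for either gene, and the log2 fold changes were -0.81 ± 0.096 SE (adjusted p = 5.9e-07) for MMP15 and -0.56 ± 0.109 SE (adjusted p = 0.00018) for MMP17. MMP14, MMP15, MMP17 and MMP24 thus changed in different directions within one subfamily, and each kept its direction under every scaling tried.

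Of the 9 MMP genes tested, 3 were higher and 3 lower, against 35.1% and 33.2% of all tested genes. The 3 that did not pass were MMP16, MMP19 and MMP28, at log2 fold changes of -0.36, -0.75 and 0.21. MMP19 had 29, 27 and 38 counts in NC and 29, 26 and 8 in siFSCN1 (adjusted p = 0.068). Without siFSCN1 replicate 1, and with the abundance trend removed, it was called lower. TMEM198B, with a mean of 303 counts against 26.2, covers 17.6% of its exons on the opposite strand. MMP9 (gelatinase B) failed the filter, with 13, 4 and 17 counts in NC and 5, 6 and 1 in siFSCN1, and so did MMP11 (stromelysin 3), with 2, 3 and 4 counts and 13, 6 and 13. In fits that left out some libraries these 2 were tested and called, MMP9 lower and MMP11 higher. Summed over the family the deposited FPKM was 79.2 to 80.8 in NC and 60.9 to 66.8 in siFSCN1.

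The largest changes of the whole group were in the ADAMTS family. ADAMTS10 (known for its link to fibrillin microfibrils and to Weill-Marchesani syndrome) had 1.69, 1.5 and 1.92 FPKM in NC and 8.76, 7.98 and 8.54 FPKM in siFSCN1. No NC library came near the siFSCN1 libraries. In CPM it rose 4.39-fold, from 12.2 ± 1.44 to 53.9 ± 1.92 (SD, n = 3), with a log2 fold change of 2.13 ± 0.068 SE (adjusted p = 1.6e-14). Under 16 alternatives the log2 fold change stayed between 1.80 and 2.32, always called. ADAMTS10 lies on GRCh38 chromosome 19, 8580240 to 8610735, on the minus strand, and shares no exonic bases with another annotated gene. It made up 44.5% ± 3.82 (SD, n = 3) of the summed ADAMTS FPKM in NC and 70.8% ± 1.44 (SD, n = 3) in siFSCN1, and the sum itself went from 3.82 FPKM ± 0.166 to 11.9 FPKM ± 0.365 (SD, n = 3).

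ADAMTS15 (a proteoglycanase that cuts versican and aggrecan) had 0.50, 0.43 and 0.40 FPKM in NC and 1.27, 1.32 and 1.36 FPKM in siFSCN1. The 2.65-fold rise had a log2 fold change of 1.41 ± 0.124 SE (adjusted p = 1.2e-08). ADAMTS6 (a close relative of ADAMTS10) and ADAMTS13 (the protease of von Willebrand factor) were called higher from few counts. ADAMTS13 had 10, 6 and 12 counts in NC and 67, 62 and 38 in siFSCN1, with siFSCN1 replicate 3 lower than the other 2 (log2 fold change 2.39 ± 0.328 SE, adjusted p = 3.8e-06). ADAMTS6 had 4, 3 and 5 counts and 20, 21 and 23 counts (2.20 ± 0.424 SE, adjusted p = 0.00016). In both the groups lay apart, but the levels stayed at or below 0.31 FPKM in all libraries.

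Of the 10 ADAMTS genes tested, 5 were higher and 4 of these called, against 35.1% and 11.7% of all tested genes. All but ADAMTS10 and ADAMTS15 stayed under 1 FPKM in both groups, where 40.6% of tested genes were higher and 24.3% called higher. Of the called genes, ADAMTS6 and ADAMTS13 passed the filter with the help of their rise. The fifth higher gene was ADAMTS7, another matrix protease, at a log2 fold change of 0.29 (adjusted p = 0.035). The other 5, ADAMTS1, ADAMTS8, ADAMTS9, ADAMTS12 and ADAMTS16, had log2 fold changes from -0.39 to 0.34 and did not pass. ADAMTS9, a proteoglycanase, had 175, 149 and 161 counts in NC and 179, 173 and 149 in siFSCN1. The procollagen N-proteinases ADAMTS2, ADAMTS3 and ADAMTS14 and the aggrecanase ADAMTS4 had at most 4 counts in any library and were not tested.

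The bases before the starts of MMP14 and ADAMTS10, called genes of at least 1 FPKM that rose over 4-fold, are shown for contrast with MMP7. They lie at chr14:22836465-22836584 (plus strand) and chr19:8610716-8610835 (minus strand) in GRCh38.p14, and TIMP1 at chrX:47582316-47582435 (plus strand) is set beside them as the most abundant inhibitor. Capitals mark GGGCGG or TATAAA on either strand.
MMP14: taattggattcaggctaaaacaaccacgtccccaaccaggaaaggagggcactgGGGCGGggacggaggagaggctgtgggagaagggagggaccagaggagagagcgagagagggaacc
ADAMTS10: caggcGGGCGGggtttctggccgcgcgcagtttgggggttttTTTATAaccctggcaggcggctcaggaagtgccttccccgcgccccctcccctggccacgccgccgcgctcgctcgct
TIMP1: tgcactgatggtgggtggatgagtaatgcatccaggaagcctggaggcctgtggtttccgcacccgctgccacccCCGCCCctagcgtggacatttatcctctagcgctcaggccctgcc

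In the 250 bases before the start, GGGCGG occurred 5 times for ADAMTS10, 2 times for TIMP1 and once for MMP14, and TGANTCA was not among their letters. GC made up 78.4%, 64.8% and 56.8% of these windows, against 33.6% for MMP7 and a median of 58.0% over the RefSeq table.

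Of the 5 ADAMTS-like genes, 2 were tested and 3 were not. Both tested genes were lower and 1 was called, against 33.2% and 4.85% of all tested genes. ADAMTSL4, whose protein binds fibrillin microfibrils in the eye, had 75, 70 and 85 counts in NC and 37, 42 and 37 in siFSCN1, with no overlap (log2 fold change -1.17 ± 0.189 SE, adjusted p = 2.7e-05). With library totals its fall was just under 2-fold (-0.98). Its exons overlap 3 genes on the opposite strand, over 11.4% of their length for ADAMTSL4-AS1, which had a mean of 6 counts, and over 0.669% for MCL1, which had 4456 counts against 57.7 for ADAMTSL4. ADAMTSL5 fell less, from 0.873 FPKM ± 0.0404 to 0.710 FPKM ± 0.0656 (SD, n = 3), at a log2 fold change of -0.46 (adjusted p = 0.0072).

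**Figure D3:**
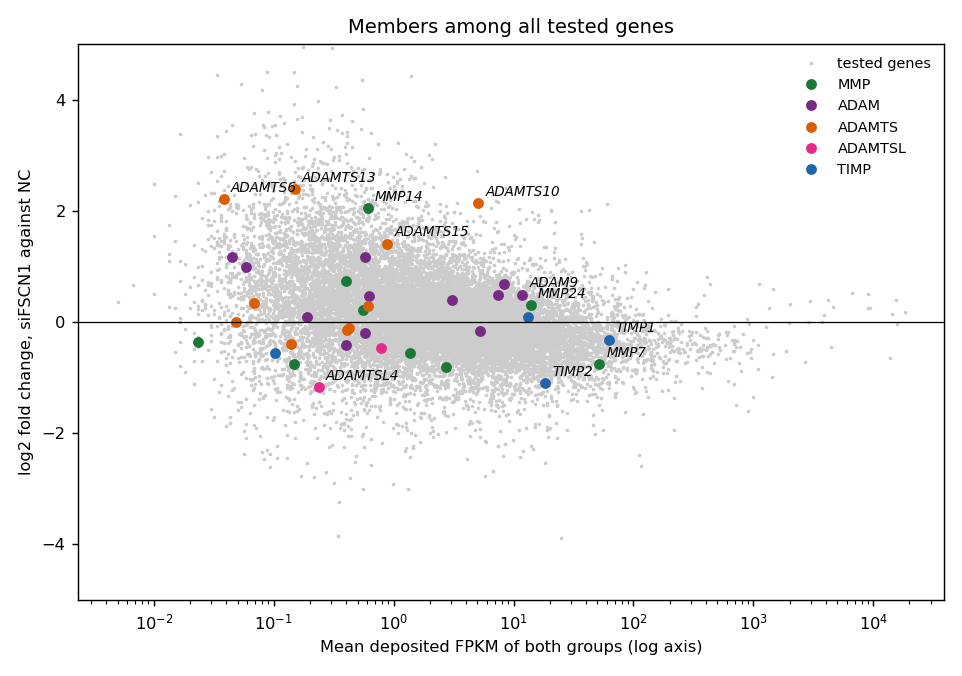
Log2 fold change of siFSCN1 against NC (vertical axis) by mean deposited FPKM of both groups (log axis) for all tested genes in grey and for the 37 protease and inhibitor genes coloured by family, with 6 genes beyond a log2 fold change of 5 left outside. ADAMTS10 lies at 2.13, MMP14 and ADAMTS13 lie at 2.05 and 2.39 in the broader cloud of low genes, and TIMP2 and MMP7 lie below 0 among abundant genes.

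Of the ADAM genes, 4 with over 1 FPKM rose and ADAM17 fell slightly. ADAM10 (the sheddase of Notch receptors and cadherins) had 5.61, 5.77 and 5.83 FPKM in NC and 8.76, 9.0 and 9.21 FPKM in siFSCN1, with a log2 fold change of 0.48 ± 0.040 SE (adjusted p = 5.6e-09). ADAM9 had 8.75, 9.78 and 8.96 FPKM and 13.31, 14.37 and 15.68 FPKM (0.49 ± 0.055 SE, adjusted p = 2.7e-07). ADAM15, which carries an integrin-binding sequence in its disintegrin domain, had 6.35, 5.90 and 5.73 FPKM and 11.67, 10.59 and 10.04 FPKM (0.68 ± 0.058 SE, adjusted p = 7.8e-09). In all 3 genes each siFSCN1 library lay above each NC library, and the fitted changes were under 2-fold.

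ADAM23, a catalytically inactive member that serves adhesion, had 2.51, 2.45 and 2.50 FPKM in NC and 3.35, 3.73 and 3.89 FPKM in siFSCN1 (log2 fold change 0.39 ± 0.065 SE, adjusted p = 3.3e-05). ADAM8, better known from leukocytes and tumours, rose 2.25-fold from a low level, with 66, 53 and 54 counts in NC and 148, 154 and 141 in siFSCN1 (1.17 ± 0.158 SE, adjusted p = 3.1e-06), and was at 0.93 with the abundance trend removed. ADAM32 had 10, 7 and 11 counts and 24, 26 and 22 counts (1.18 ± 0.347 SE, adjusted p = 0.0060). With DESeq2 its adjusted p was 0.0522, and with the trend removed 0.075. ADAM28 had 12, 5 and 20 counts in NC and 34, 29 and 20 in siFSCN1 and missed 2-fold narrowly (0.995, adjusted p = 0.026).

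ADAM17 (TACE, the sheddase of TNF, its receptors and EGF receptor ligands) differed from ADAM10. Its FPKM was 5.09, 5.32 and 5.46 in NC and 5.29, 5.19 and 5.36 in siFSCN1, and these values overlap. In CPM the groups did not overlap, 71.4 ± 1.89 against 63.5 ± 1.00 (SD, n = 3), with a log2 fold change of -0.17 ± 0.046 SE (adjusted p = 0.0035). The sign depends on the scaling, since library totals gave 0.02 (adjusted p = 0.740), while the median of all tested genes moved from 0.03 to 0.22 under the same change. The ratio of ADAM10 to ADAM17, which no scaling of libraries alters, was 1.10, 1.08 and 1.07 in NC and 1.66, 1.73 and 1.72 in siFSCN1. Exons of IAH1 cover 10.3% of those of ADAM17 on the opposite strand, and IAH1 had a mean of 2087 counts against 2138. The ADAM17 values and the ratio are thus uncertain if the counting did not use strand.

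Of the 12 ADAM genes tested, 8 were higher and 2 lower, against 35.1% and 33.2% of all tested genes. The lower ones were ADAM17 and ADAM19, the latter at a log2 fold change of -0.42 (adjusted p = 0.011). ADAM12, the eighth of the higher genes, was at 0.47 (adjusted p = 0.0032). ADAM11 and ADAM22, both catalytically inactive, had -0.20 and 0.10 and did not pass. ADAM20 and ADAM21, known from the testis, failed the filter. ADAM20 had no count in NC and 4, 3 and 4 counts in siFSCN1, and ADAM21 had 0, 3 and 2 counts and 8, 8 and 12 counts. Neither gene was tested here, and both were called higher when all genes with a count entered the fit.

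TIMP1, TIMP2 and TIMP4 were abundant and TIMP3 was low, and the inhibitors that passed the test, TIMP1 and TIMP2, went down. TIMP1 (the inhibitor of most secreted MMPs) had 63.51, 66.14 and 65.71 FPKM in NC and 62.59, 58.38 and 55.19 FPKM in siFSCN1. TIMP2 (which blocks MMPs and at low levels assists MMP14 in activating MMP2) had 23.76, 24.43 and 24.01 FPKM and 13.05, 12.66 and 12.26 FPKM. Groups lay apart for both genes, with the smaller gap in TIMP1, of which siFSCN1 replicate 1 came close to NC. TIMP2 fell 2.13-fold, with a log2 value of -1.09 ± 0.040 SE (adjusted p = 8.5e-14). It was under 2-fold with upper quartile scaling (-0.98), with library totals (-0.91) and with the abundance trend removed (-0.88), as well as in both limma fits, and its adjusted p stayed under 0.05 in each. TIMP1 fell 1.24-fold, at -0.32 ± 0.046 SE (adjusted p = 7.0e-06). Its result was weaker in 2 of 16 alternatives. The adjusted p was 0.0589 with limma on log2(FPKM + 0.1) and 0.0593 at most.

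TIMP4 had 12.23, 11.66 and 12.08 FPKM in NC and 14.90, 14.98 and 12.87 FPKM in siFSCN1, and its CPM overlapped between groups (log2 fold change 0.08 ± 0.072 SE, adjusted p = 0.318). With upper quartile scaling it was higher at an adjusted p of 0.0209. Over the 16 alternatives 4 gave a stronger result than the main fit, and the lowest adjusted p was 0.0027. TIMP3, the matrix-bound inhibitor of ADAM17 and ADAMTS enzymes, had 38, 13 and 8 counts in NC and 11, 23 and 12 in siFSCN1 and did not pass (-0.55, adjusted p = 0.337). Summed TIMP levels were 99.7 to 102 FPKM in NC and 80.4 to 90.6 FPKM in siFSCN1. TIMP1 took 64.3% ± 0.523 (SD, n = 3) of the sum in NC and 68.5% ± 0.672 (SD, n = 3) in siFSCN1.

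**Figure D4:**
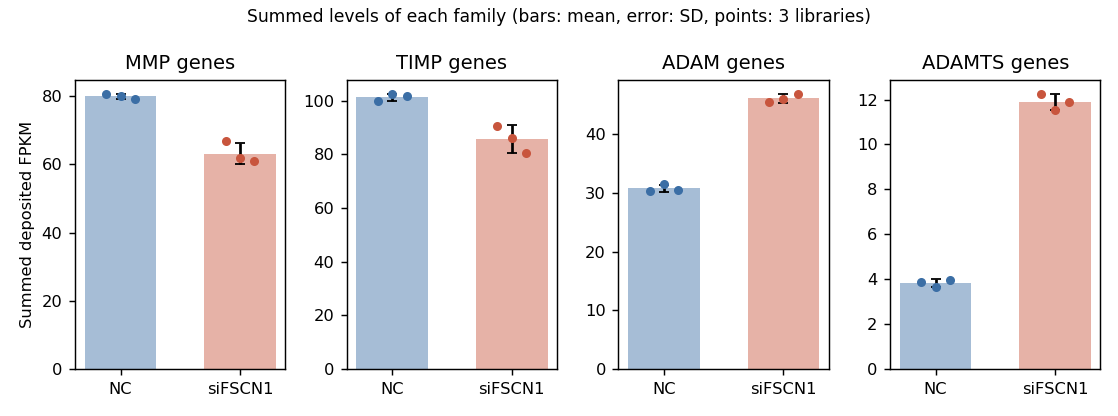
Summed deposited FPKM of the MMP, TIMP, ADAM and ADAMTS genes, with bars for the mean of each group, error bars for the SD and points for the 3 libraries. The MMP and TIMP sums are lower in siFSCN1 (means of 63.2 and 85.7 FPKM, with NC above 79.2 and 99.7), and the ADAM and ADAMTS sums higher (46.1 and 11.9 FPKM against 30.8 and 3.82).

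Inhibitor and protease levels were also set against each other within each library. The TIMP sum was 1.27 times ± 0.0273 (SD, n = 3) the MMP sum in NC and 1.36 times ± 0.0364 (SD, n = 3) in siFSCN1. The MMP sum in siFSCN1 was 0.790 of that in NC, and the TIMP sum 0.846 of it. Single pairs moved further. The ratio of TIMP1 to TIMP2 was 2.67, 2.71 and 2.74 in NC and 4.80, 4.61 and 4.5 in siFSCN1. The ratio of TIMP2 to MMP14 was 84.9, 204 and 104 in NC and 12.3, 11.6 and 13.9 in siFSCN1, the spread in NC coming from the low MMP14 of replicate 2. MMP7 over TIMP1 went from 0.953 ± 0.0226 to 0.703 ± 0.0220 (SD, n = 3). These ratios are descriptions and carry no test.

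**Figure D5:**
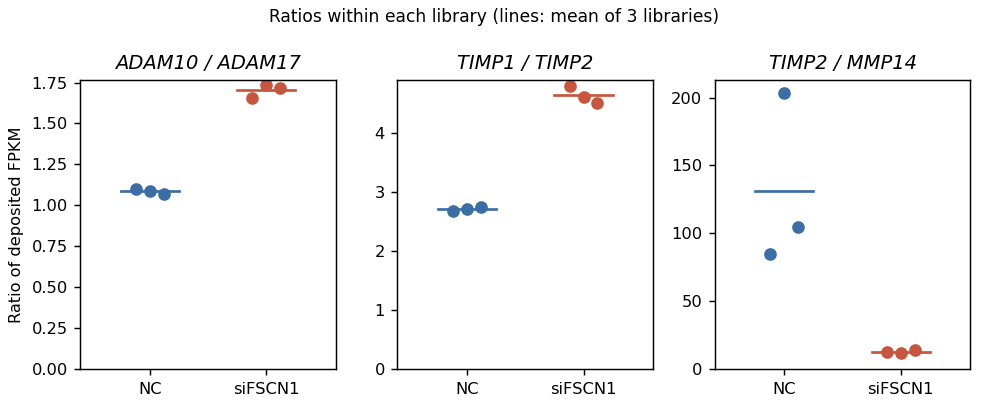
Ratios of deposited FPKM within each library for ADAM10 to ADAM17, TIMP1 to TIMP2 and TIMP2 to MMP14, with a point per library and a line at the mean of 3 libraries. The points of both groups are apart in each panel, with NC at 1.07 to 1.10 and siFSCN1 at 1.66 to 1.73 for ADAM10 to ADAM17.

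Partners that guide ADAM10 and ADAM17 to their substrates were read from a list of 10 genes, of which 3 were higher and 5 lower at an adjusted p under 0.05, against 35.1% and 33.2% of all tested genes. TSPAN15 (a tetraspanin that carries ADAM10 to the surface and directs it to N-cadherin) had 28.25, 29.12 and 29.42 FPKM in NC and 9.73, 8.36 and 8.16 FPKM in siFSCN1. It fell 3.71-fold, with a log2 value of -1.89 ± 0.058 SE (adjusted p = 9.7e-15). TSPAN5, of the same tetraspanin group, had 1.59, 1.57 and 1.48 FPKM and 0.60, 0.55 and 0.52 FPKM (-1.64 ± 0.110 SE, adjusted p = 2.5e-10). These 2 falls went against the rise of ADAM10 itself. The other 3 lower genes were TSPAN14, TSPAN17 and FRMD8, at -0.16, -0.15 and -0.46, and the higher ones TSPAN10, TSPAN33 and RHBDF1, at 0.96, 0.30 and 0.61. RHBDF1 is an iRhom that helps ADAM17 mature.

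Of 31 listed ADAM10 and ADAM17 substrates, 25 were tested, and 9 were higher and 9 lower (36% each, near the 35.1% and 33.2% of all tested genes), with a median log2 fold change of -0.02. At 2-fold 4 were higher and 3 lower, against 11.7% and 4.85% of all tested genes. Genes of these lists under 1 FPKM are named where a count holds 5 or fewer, and these were chosen after their values were seen. The called genes were CDH1 (E-cadherin, 1.35), IL6R (1.08), BTC (1.04) and EGF (1.31) among the higher, and TNFRSF1A (the TNF receptor, -1.67), L1CAM (-1.14) and DLL1 (-1.09) among the lower. BTC, EGF, L1CAM and DLL1 were low, under 1 FPKM in both groups. Of tested genes in that class 24.3% were called higher and 4.86% lower. DLL1 had 10, 20 and 19 counts in NC and 7, 7 and 12 in siFSCN1, and its groups overlapped. TNFRSF1A went from 67.7 FPKM ± 1.18 to 23.9 FPKM ± 2.70 (SD, n = 3). Of these, CDH1 was picked by the study as a gene that changed in these same libraries.

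Of 24 matrix substrates of MMPs and ADAMTS enzymes, 15 were tested, 7 higher and 4 lower, against 35.1% and 33.2% of all tested genes, with a median of 0.08. VCAN (versican, a proteoglycan that ADAMTS enzymes cut) rose from 3.09 FPKM ± 0.120 to 8.24 FPKM ± 0.331 (SD, n = 3), a log2 fold change of 1.25 ± 0.047 SE (adjusted p = 1.1e-13). FN1 (fibronectin) rose from 14.2 FPKM ± 0.445 to 33.8 FPKM ± 2.10 (SD, n = 3), at 1.08 ± 0.044 SE (adjusted p = 2.8e-13). ELN (elastin) was called lower from a low level, at -1.14.

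Proprotein convertases remove the prodomain of ADAMs, ADAMTS enzymes and membrane-type MMPs. Of 9 listed, 7 were tested, and FURIN (0.61), MBTPS1 (0.42), PCSK6 (0.73) and PCSK4 (2.08, called) were higher, while PCSK7 (-0.91) was lower. Of all tested genes 35.1% were higher and 11.7% called higher. PCSK4 was low, with 21, 9 and 13 counts in NC and 71, 82 and 54 in siFSCN1. Among tested genes under 1 FPKM in both groups, as PCSK4 was, 24.3% were called higher. FURIN had 7.43, 7.30 and 7.56 FPKM in NC and 13.63, 12.06 and 12.52 FPKM in siFSCN1. Of 12 other inhibitors and regulators, 9 were tested and 7 were higher, against 35.1% of all tested genes, among them RECK (a membrane-anchored MMP inhibitor, 0.52), LRP1 (the receptor that clears proteases and TIMP complexes, 0.87) and SPOCK2 (1.96, called). SPOCK2 was low, with 13, 8 and 13 counts in NC and 51, 57 and 43 in siFSCN1. It needed its siFSCN1 counts to pass the filter, so that its rise helped it into the test. PCOLCE (-0.26, adjusted p = 0.121) and SPOCK1 (-0.07, adjusted p = 0.851) did not pass. Of the other metzincins, the wider protease clan, 3 were tested. PAPPA (which cuts IGF-binding proteins) rose at 1.13 (adjusted p = 6.3e-11), BMP1 (the procollagen C-proteinase) was at 0.19 (adjusted p = 0.00082), and TLL2 did not pass.

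The 23 genes that failed the filter had at most 17 counts in any library, and 17 of them never passed 5 counts. They were 10 MMP, 4 ADAM, 6 ADAMTS and 3 ADAMTSL genes. ADAMTS14 and ADAMTSL1 had a count row and no FPKM row. These genes were not tested at this depth, and 4 of them (ADAM20, ADAM21, MMP11 and MMP9) were called when no filter beyond 1 count was used.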

How the data were processed

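Total counts of 3 NC and 3 siFSCN1 libraries of A549 cells were compared. Deposited raw counts per gene and deposited FPKM came from reads that the authors trimmed, aligned to GRCh38 with HISAT2 by the methods, and kept where uniquely mapped. The submitters' processing notes name TopHat2 instead. FPKM carry no correction for composition. The counting program and annotation are not given in the sources used here.

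Genes were kept by filterByExpr, scaled by TMM and tested with edgeR 4.0.16 (R 4.3.3) quasi-likelihood fits without covariates, adjusting p by Benjamini-Hochberg over all 17076 genes. Genes were called at 2-fold or more with an adjusted p below 0.05. The study used DESeq2 instead, which was run as an alternative (1.42.0), as was limma 3.58.1 on log2 FPKM. No 2 libraries agreed within sampling noise (chi-square per degree of freedom at least 3.1). Positions came from GENCODE 44, promoters from RefSeq.

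Members and lists were chosen with earlier results of these data known. Named were members with a mean of at least 1 FPKM in a group or called, and of each list the called genes of at least 1 FPKM, up to 5 per direction. Some members outside this rule are named with counts. A result for 1 gene of the lists is not reported here.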

Additional observations from a re-analysis of the deposited data

How the results depend on the processing

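Counts of genes are of the MMP, ADAM, ADAMTS, ADAMTSL and TIMP genes. The fall of FSCN1 ran from -4.11 to -3.41 over the 16 alternatives, always called. The count of higher genes at an adjusted p under 0.05 was 13 to 18 over the alternatives. That of lower genes was 9, and 5 to 13 over the alternatives, with 5 in each limma fit. Genes called higher were 7, with 1 under limma on log2(FPKM + 1), where the pseudocount shrinks low genes. Genes called lower were 2, with 1 under upper quartile scaling. There were 0 with edgeR on library totals, where 6 genes were lower at an unadjusted p under 0.05, and 0 in both limma fits, where 7 were. The median log2 fold change (0.10) was 0.21 with upper quartile scaling and 0.28 with library totals, where that of all tested genes was 0.15 and 0.22. It was 0.0048 under limma on log2(FPKM + 1) and -0.068 with the abundance trend removed. ADAM17 reversed to 0.019 with library totals.

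Leaving out 1 library gave 14 to 16 higher and 8 to 11 lower genes, 7 to 9 called higher and 2 to 4 called lower, medians of 0.043 to 0.27, and -4.11 to -3.77 for FSCN1. The 4 came without siFSCN1 replicate 1, which added MMP9 and MMP19, and the 3 without NC replicate 2 or siFSCN1 replicate 2 from adding MMP9. The median of 0.27 came without NC replicate 1. The 9 genes called with all libraries were called in each of these 6 fits. Over all tested genes, deviations of same-numbered libraries from their group means had correlations of -0.03, 0.04 and -0.08. These show no pairing over the genes as a whole and cannot exclude one in part of them. With the replicate block 16 genes were higher, 9 lower, 8 called higher (ADAM28 was added) and 2 called lower. Beyond what is stated, the cause was not tested. Low counts limit the 45 genes under 1 FPKM in both groups.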
